A study of Mus musculus with 8 samples.

Results

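The integrin α chains *Itga8* and *Itga11*, the integrin-actin linkers *Parva*, *Vcl* and *Actn1*, the adaptor *Bcar1* and the LIM protein *Lpp* were followed across sorted fractions of mouse embryonic stem (ES) cells. They are 7 chosen genes that a supplementary gene list of the study pairs with a probe, 1 probe each, out of 42006 distinct probes on the array and 29484 that passed the signal filter. All 7 passed it, in every sample. The cells were the HV line (called HIV in the labels), 129/Ola ES cells in which the fluorescent protein Venus was knocked into the locus of *Hex*, an early endoderm transcription factor. Cultures grown feeder-free and under self-renewing conditions with LIF were sorted by Venus (V) and the ES cell surface antigen SSEA-1 (S) into 4 fractions: V-S+, the reporter-negative ES cells; V+S+, positive for both; V-S-, negative for both; and V+S-, positive for the reporter alone. All fractions came from 2 clones of the line, 5.1 and 16.1, so that there were 8 samples and every one carried the knock-in. The study asked how cells with Hex reporter activity, in particular V+S+ cells, differ from other ES cells and whether they resemble primitive endoderm, the extra-embryonic layer that forms beside the epiblast.

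Integrins are receptors made of an α and a β chain that bind extracellular matrix outside the cell. Inside, they gather a plaque of proteins, the focal adhesion, which ties them to actin filaments and passes signals to kinases such as FAK and Src. Primitive endoderm cells spread over, and secrete, a basement membrane that integrins bind, while ES cells in LIF grow as compact colonies held together largely by E-cadherin.

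Each value rests on 1 oligonucleotide of 60 bases, and these sequences are shown because they alone decide which transcript was read. The last 30 bases of each probe are given 5′ to 3′, as the scanner files list them, with a polyadenylation hexamer in capitals where there is one.
Itga8: ctgtttttataagacagagggaaatgagca
Itga11: aaatatatttaagaaaatgttctaaacggt
Parva: attccagaaatactctgtgcaAATAAAgcc
Vcl: aaactatgtttataagctaggacttatatg
Actn1: ATTAAAgaaaaccttttgaaatggctgctt
Bcar1: aagaactatttttcactattgatttttcca
Lpp: actgatatgtgtcccagatgaaatagagac
The hexamer AATAAA began at base 52 of the *Parva* probe and ATTAAA at base 31 of the *Actn1* probe, and the other 5 probes held neither. The GC content of the whole probes lay between 31.7% and 38.3%. None of them shared a run of 20 bases, on either strand, with another probe on the array. The files place the probes on no chromosome, and which transcript isoforms they read was not tested.

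RefSeq promoter sequences (GRCm38.p6, 250 bases before to 50 bases after a start site) were held for 6 of the 7 genes, in 8 windows, since *Bcar1* and *Lpp* have 2 start sites each. The windows were searched on both strands for the CArG box that serum response factor binds, the TEAD motif GGAATG, the GATA factor motif GATAA and the AP-1 motif TGANTCA. *Vcl* alone had a CArG box, which reads the same on both strands and lay 227 to 218 bases before the start site. It also held a TEAD motif 143 to 138 bases and, on the reverse strand, a GATA motif 94 to 90 bases before the start site, none overlapping another. The 250 bases before the *Vcl* start site are shown with the 3 matches in capitals, as it is the only window here with more than 1 kind of motif.
Vcl, chr14:20929148-20929397, + strand, GRCm38.p6: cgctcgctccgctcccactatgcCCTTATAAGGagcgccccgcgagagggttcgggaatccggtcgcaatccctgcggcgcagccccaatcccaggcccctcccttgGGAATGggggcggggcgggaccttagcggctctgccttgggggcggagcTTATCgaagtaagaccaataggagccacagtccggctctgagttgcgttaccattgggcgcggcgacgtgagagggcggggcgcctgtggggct
*Lpp* had a TEAD motif 182 to 177 bases before its second start site, shown in capitals within 30 bases.
Lpp, chr16:24721661-24721690, + strand, GRCm38.p6: ctggaagtatgtGGAATGgagaaggaagtg
No window of *Itga8*, *Itga11*, *Actn1* or *Bcar1* matched any of the 4 motifs, and none of the 8 windows held the AP-1 motif. Among all 32851 promoter windows of this length, 1.63% held the CArG box, 14.7% the TEAD motif, 25.4% the GATA motif and 7.81% the AP-1 motif.

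The quantity given below as a level is the log2 ratio of the Cy3 signal, from the sorted cells, to the Cy5 signal, from a reference RNA pooled from cultured cell lines, an embryo fibroblast line among them. Its 0 is therefore the level of the pool, and levels of different genes cannot be set against each other. Each level is the mean of 2 scans of 1 array, and the scans of the 7 probes differed by at most 0.15. Per sample, 28316 to 29671 probes passed the scanner's background test in both scans, and Cy3 signal over background had a median of 2.36 to 2.87. That ratio was 10.2 to 52.1 for *Itga8*, 3.42 to 23.3 for *Itga11* and 61.2 or more for the other 5 genes. The arrays of a clone shared a slide that held no other clone, and clone and slide cannot be told apart. In these bulk samples a lower level can come from fewer cells that express a gene or from less RNA per cell, which cannot be told apart.

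*Itga8*, the α chain of α8β1, a receptor for RGD-containing matrix proteins such as nephronectin and fibronectin, was higher in Venus-positive cells whatever their SSEA-1 state. In clone 5.1 its level was 1.46 for V-S+ cells, 2.68 for V+S+ cells, 1.48 for V-S- cells and 3.15 for V+S- cells. In clone 16.1 it was 1.86 for V-S+ cells, 3.52 for V+S+ cells, 2.30 for V-S- cells and 3.63 for V+S- cells. The V+ samples lay above all 4 V- samples, as for each of the 7 genes and 16.7% of all probes, and V+S+ cells of clone 16.1 lay above V+S- cells of clone 5.1, so that the V+ fractions overlapped. The V- means were 1.66 ± 0.28 (V-S+) and 1.89 ± 0.58 (V-S-), and the V+ means 3.10 ± 0.59 (V+S+) and 3.39 ± 0.34 (V+S-; SD, n = 2 clones each).

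*Itga11*, the α chain of the collagen receptor α11β1 best known from fibroblasts, was highest in V+S- cells by a wide margin. In clone 5.1 its level was -1.27 for V-S+ cells, -0.77 for V+S+ cells, -1.51 for V-S- cells and 0.80 for V+S- cells. In clone 16.1 it was -0.91 for V-S+ cells, -0.18 for V+S+ cells, -1.28 for V-S- cells and 1.02 for V+S- cells. The V+S- samples were the only ones above the reference pool, with a mean of 0.91 ± 0.16 (SD, n = 2) against -0.48 ± 0.42 for V+S+ cells, -1.09 ± 0.25 for V-S+ cells and -1.39 ± 0.16 for V-S- cells. V-S+ and V+S+ cells did not overlap, and their nearest samples were -0.91 and -0.77.

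The 3 integrin-actin linkers shared a graded order, with V-S- lowest and V-S+ next, V+S+ above them and V+S- highest. For *Parva*, which encodes α-parvin, a partner of integrin-linked kinase that binds actin, the levels were -2.04 for V-S+ cells, -1.59 for V+S+ cells, -2.23 for V-S- cells and -1.001 for V+S- cells of clone 5.1. In clone 16.1 they were -1.76 for V-S+ cells, -0.96 for V+S+ cells, -2.03 for V-S- cells and -0.51 for V+S- cells. V+S+ cells of clone 16.1 stood just above V+S- cells of clone 5.1, and V-S+ cells of clone 5.1 just below V-S- cells of clone 16.1, so that across clones these pairs of fractions overlapped. Within each clone V+S- cells lay above V+S+ cells, by 0.59 and 0.45 in clones 5.1 and 16.1, and V-S+ cells above V-S- cells.

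*Vcl* encodes vinculin, which binds talin and actin and reinforces adhesions under load. In clone 5.1 its level was -0.17 for V-S+ cells, 0.26 for V+S+ cells, -0.49 for V-S- cells and 0.75 for V+S- cells. In clone 16.1 it was -0.02 for V-S+ cells, 0.79 for V+S+ cells, -0.24 for V-S- cells and 1.04 for V+S- cells. V+ and V- samples did not overlap, whereas V+S+ and V+S- did.

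*Actn1* encodes the non-muscle actin crosslinker α-actinin-1. In clone 5.1 its level was 0.01 for V-S+ cells, 0.52 for V+S+ cells, -0.21 for V-S- cells and 1.00 for V+S- cells. In clone 16.1 it was 0.10 for V-S+ cells, 0.84 for V+S+ cells, -0.05 for V-S- cells and 1.22 for V+S- cells. The 4 fractions of *Actn1* did not overlap, which held for 3 of the 7 genes (*Itga11*, *Actn1* and *Lpp*) and for 5.6% of all probes.

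*Bcar1*, the scaffold p130Cas that FAK and Src phosphorylate, did not separate the V- fractions. In clone 5.1 its level was -0.27 for V-S+ cells, 0.27 for V+S+ cells, -0.28 for V-S- cells and 0.51 for V+S- cells. In clone 16.1 it was -0.19 for V-S+ cells, 0.65 for V+S+ cells, -0.18 for V-S- cells and 0.79 for V+S- cells. The mean of the V- fractions was the same to 2 decimals, -0.23 ± 0.06 in V-S+ and -0.23 ± 0.07 in V-S- (SD, n = 2), and all V+ samples were above it.

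*Lpp*, a LIM protein of the zyxin family found at focal adhesions and cell contacts, had levels of -1.22 for V-S+ cells, -0.42 for V+S+ cells, -1.65 for V-S- cells and 0.13 for V+S- cells of clone 5.1. In clone 16.1 they were -1.06 for V-S+ cells, -0.01 for V+S+ cells, -1.34 for V-S- cells and 0.28 for V+S- cells. As with *Actn1*, the 4 fractions did not overlap and stood in that same order.

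**Figure D1:**
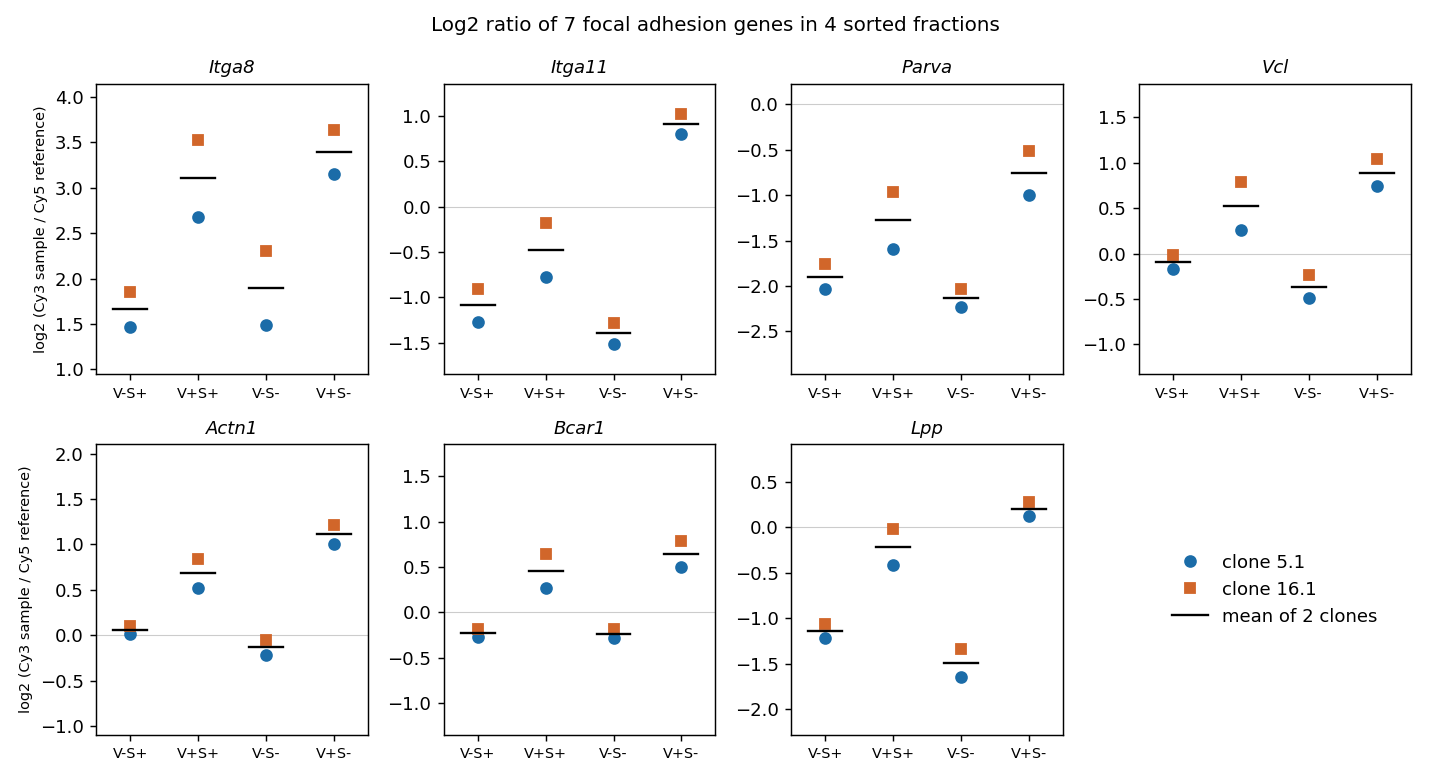
Log2 ratio of sample (Cy3) to reference (Cy5) for each of the 7 genes in the 4 sorted fractions. Points are single samples (circles, clone 5.1, and squares, clone 16.1), black lines are means of 2 clones, and every panel spans the same height around the gene's own range. Clone 16.1 lies above clone 5.1 in every fraction of every gene, and with the fractions ordered by their means *Itga11* makes its largest step between neighbours from V+S+ to V+S- cells, from a mean of -0.48 to 0.91.

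The comparison of V+S- with V-S- cells asks what goes with reporter activity once SSEA-1 is lost. All 7 genes were higher in V+S- cells, by 4.93-fold for *Itga11* (log2 difference of 2.30, SE 0.22), 3.25-fold for *Lpp* (1.70, SE 0.17) and 2.82-fold for *Itga8* (1.498, SE 0.38). The linkers followed, at 2.59-fold for *Parva*, 2.39-fold for *Vcl* and 2.37-fold for *Actn1*, and *Bcar1* had the smallest difference, 1.84-fold. In limma all 7 were called at an FDR of 0.05 and more than 1.5-fold, with adjusted p from 0.00986 for *Itga11* to 0.0428 for *Itga8*, where 6.3% of all probes were called higher. *Itga11* had the largest log2 difference but 1 among 29484 probes. The median log2 difference of the 7 genes was 1.37, against 0.01 for all probes and 0.69 for the 1998 probes of the gene list. The study drew that list from these same samples, so the calls are no independent evidence of their direction. Leaving out V+S- cells of clone 16.1 or V-S- cells of either clone leaves that fraction 1 sample, whose spread is taken from the others. Every call on the array was then lost, those of the 7 genes included. The median log2 difference of the 7 genes was 1.14 without V+S- cells of clone 16.1. Without V-S- cells of clone 5.1 it was 1.16, and without those of clone 16.1 it was 1.47. *Itga8* was not called with the scanner's processed signals (adjusted p = 0.0645). Without moderation 3 of the 7 and 358 of all probes were called.

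Against V-S+ cells, V+S- cells again had higher levels of all 7 genes, and these comparisons share the V+S- samples. The log2 difference was 2.00 for *Itga11*, 1.73 for *Itga8*, 1.35 for *Lpp*, 1.14 for *Parva*, 1.05 for *Actn1*, 0.99 for *Vcl* and 0.88 for *Bcar1*. All were called, with adjusted p from 0.0122 for *Itga11* to 0.0328 for *Parva* (limma), where 5.73% of all probes were called higher. Without V+S- cells of clone 16.1, or without V-S+ cells of either clone, a fraction keeps 1 sample. All or nearly all calls on the array, those of the 7 genes included, were then lost. The median log2 difference of the 7 genes, 1.14, was 0.95 without V+S- cells of clone 16.1. It was 1.01 without V-S+ cells of clone 5.1 and 1.28 without those of clone 16.1. Fewer of the 7 genes and of all probes were called without V+S- cells of clone 5.1 (median 1.39) or V-S- cells of either clone (1.14). *Itga8* was not called with the scanner's processed signals (adjusted p = 0.0517). Without moderation 1 of the 7 and 337 of all probes were called.

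V+S+ against V-S+ cells asks whether reporter activity goes with a change while SSEA-1 is still present. All 7 genes were higher in V+S+ cells of both clones, which 39.7% of all probes were. *Itga8* had the largest log2 difference, 1.44 (1.22 in clone 5.1 and 1.67 in clone 16.1), and *Lpp* followed at 0.93 (0.81 and 1.05). The other 5 lay close together, at 0.69 for *Bcar1*, 0.62 for *Parva*, *Vcl* and *Actn1* and 0.61 for *Itga11*. In clone 5.1 they lay between 0.44 (*Vcl*) and 0.54 (*Bcar1*), all under 1.5-fold. In clone 16.1 they lay between 0.72 (*Itga11*) and 0.83 (*Bcar1*), all above it. *Itga8* thus reached 2.72-fold, rank 15 by log2 difference among 29484 probes, where *Itga11* had rank 1051. In limma with fraction alone none of the 7 was called, and 0% of all probes were; the adjusted p lay between 0.148 and 0.260, and all 7 had an unadjusted p under 0.05, as had 5514 probes. With clone as a block, 7 of 7 were called, with adjusted p from 0.00258 for *Itga8* and *Lpp* to 0.0117 for *Parva*, where 3.87% of all probes were called higher. The block takes out the difference between the clones, and with it that between their slides. The median log2 difference of the 7 genes was 0.62. With 1 sample left out it ranged from 0.46, without V+S+ cells of clone 16.1, to 0.90, without V+S+ cells of clone 5.1.

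Loss of SSEA-1 without the reporter, V-S- against V-S+, went with small differences and no call. *Itga11* (-0.31), *Parva* (-0.23), *Vcl* (-0.27), *Actn1* (-0.19) and *Lpp* (-0.35) were lower in V-S- cells of both clones, which 34.1% of all probes were. *Itga8* was 0.23 higher, with 0.02 in clone 5.1 and 0.45 in clone 16.1. Its sign turned without V-S- cells of clone 16.1, as those of clone 5.1 (1.48) lay under the V-S+ mean of 1.66. *Bcar1* did not move beyond its error (log2 difference of -0.003, SE 0.15). None of the 7 was called, with clone as a block or without it, at adjusted p of 0.421 or more (limma); without the block 0% of all probes were called higher, 834 had an unadjusted p under 0.05, and none of the 7 was among them. With the block 4 of the 7 and 2473 probes had an unadjusted p under 0.05. Median centring in place of loess moved the median of all probes to -0.12 and that of the 7 genes from -0.23 to -0.43 in this comparison. The median of the 7 genes was -0.133 without V-S- cells of clone 5.1 and -0.126 without V-S+ cells of clone 16.1. It was -0.330 without V-S- cells of clone 16.1 and -0.348 without V-S+ cells of clone 5.1.

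Between the V+ fractions, V+S- against V+S+, *Itga11* had the highest log2 difference of the 7 genes, 1.39 (2.62-fold), 1.57 in clone 5.1 and 1.20 in clone 16.1. The others lay between 0.19 for *Bcar1* and 0.52 for *Parva*, and *Itga8* differed by 0.29 (SE 0.38). Without V+S+ cells of clone 5.1 the median of the 7 genes went from 0.42 to 0.20, with *Itga8* at -0.13, *Bcar1* at -0.0021, *Parva* at 0.20 and *Itga11* at 1.09. With fraction alone no gene was called (adjusted p of 0.112 for *Itga11* in limma), 0% of all probes were called higher, and 3 of the 7 and 4429 probes had an unadjusted p under 0.05. With clone as a block 6 of the 7 and 8602 probes had an unadjusted p under 0.05, and *Itga11* was called (adjusted p = 0.00675), where 1.75% of all probes were called higher.

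Over all 4 fractions, limma's moderated F-test called 5 of the 7 genes, all but *Itga8* (adjusted p = 0.0638) and *Parva* (0.0546), and 7.38% of all probes. With clone as a block both were called (adjusted p = 0.000549 and 0.000806). A test of this kind chose the gene list in the study, so the count is a description. None of the 7 was called by it when any sample other than those of V+S+ cells was left out.

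**Figure D2:**
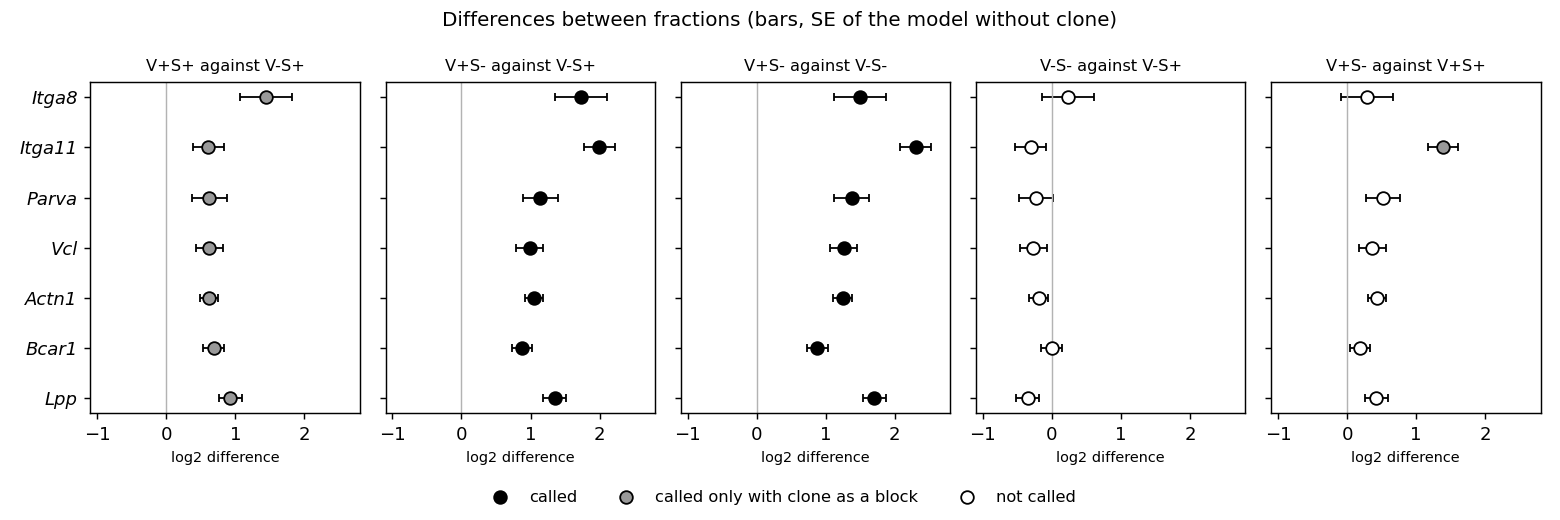
Log2 difference of each of the 7 genes in 5 comparisons of fractions, with the SE of the model with fraction alone (2 samples a fraction). Black points were called, grey points only with clone as a block, open points in neither fit. All 7 are black in both comparisons of V+S- with V- cells, all are grey in V+S+ against V-S+, and *Itga11* alone is grey in V+S- against V+S+.

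The difference between V+ and V- cells was compared between the S- and S+ states as an interaction. For *Itga11* it was 1.69 larger on the log2 scale in S- than in S+ cells (1.81 in clone 5.1 and 1.57 in clone 16.1), the largest but 1 among 29484 probes. *Lpp* followed at 0.77, *Parva* at 0.75, *Vcl* at 0.63, *Actn1* at 0.62 and *Bcar1* at 0.19, each above 0 in both clones. The median of the 7 genes was 0.63. With 1 sample left out it ranged from 0.44, without V+S+ cells of clone 5.1, to 0.90, without V+S+ cells of clone 16.1. For *Itga8* the interaction was 0.05 (SE 0.53), with 0.45 in clone 5.1 and -0.34 in clone 16.1, and its sign turned with the scanner's processed signals (-0.01). With fraction alone none of the 7 was called, as 0% of all probes were called higher; the smallest adjusted p of the 7 was 0.567 in limma, 3 of the 7 and 2340 probes had an unadjusted p under 0.05. With clone as a block *Itga11* (adjusted p = 0.0357) and *Lpp* (0.0429) were called, where 0.899% of all probes were called higher. That *Itga11* and *Itga8* differ from each other in this respect was not tested, and an interaction not called does not show that the differences were equal.

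**Figure D3:**
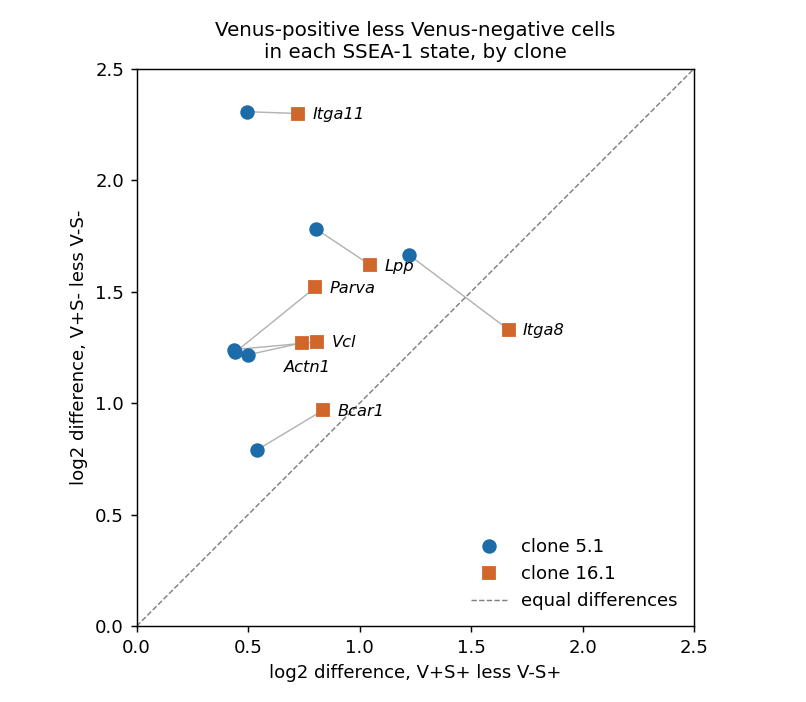
Log2 difference between Venus-positive and Venus-negative cells in the S+ state (x axis) and the S- state (y axis) for the 7 genes, circles for clone 5.1 and squares for clone 16.1, joined within a gene. On the dashed line both differences are equal. *Itga11* lies highest above it (about 2.30 against 0.49 in clone 5.1 and 0.72 in clone 16.1), and *Itga8* has a clone on either side.

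All 7 genes were higher in clone 16.1 than in clone 5.1 in each of the 4 fractions, where 52.9% to 54.5% of all probes were. The median clone difference of the 7 genes was largest in V+S+ cells, 0.53 on the log2 scale, against 0.16 among V-S+ cells, 0.23 among V-S- cells and 0.28 among V+S- cells. The clone difference of all probes also spread most in V+S+ cells, with an SD over probes of 0.30 against 0.19, 0.19 and 0.27 in the same order. The differences ranged from 0.09 for *Bcar1* in V-S+ to 0.84 for *Itga8* in V+S+. Averaged over fractions, the clone difference was 0.63 for *Itga8*, 0.40 for *Parva*, 0.35 for *Itga11*, 0.31 for *Vcl*, 0.26 for *Lpp*, 0.21 for *Bcar1* and 0.20 for *Actn1*. *Itga8* alone was called (1.55-fold, adjusted p = 0.00451 in limma), and 2.14% of all probes were called in either direction. The other 6 had an adjusted p of 0.0128 to 0.0429 but stayed under 1.5-fold. In the same fit all 7 had an unadjusted p under 0.05, as had 11688 of 29484 probes. *Itga8* was under 1.5-fold without V+S+ cells of either clone (0.56) and without V-S- cells of either clone (0.57).

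The levels of the 7 genes went together across the 8 samples, with Pearson's r from 0.858 for *Itga8* and *Itga11* to 0.993 for *Actn1* and *Lpp*. These samples are 4 fractions of 2 clones and not 8 independent draws, so r is a description. Among the other 1997 probes of the gene list, those most like *Itga8* were *Syt13* (r = 0.996), which encodes a synaptotagmin, *Clu* (0.994), which encodes the secreted chaperone clusterin, and *Stau2* (0.993), which encodes a double-stranded RNA-binding protein. *Clu* had mean levels of -0.29 for V-S+ cells, 0.72 for V+S+ cells, -0.23 for V-S- cells and 0.95 for V+S- cells, high in both V+ fractions as *Itga8* was. Those most like *Itga11* were *Axl* (0.998), a receptor tyrosine kinase, *Cdkn2b* (0.997), the cyclin-dependent kinase inhibitor p15, and *Wnt2b* (0.996), a Wnt ligand. *Axl* had mean levels of -3.46 for V-S+ cells, -2.77 for V+S+ cells, -3.74 for V-S- cells and -1.55 for V+S- cells, with the step at V+S- that *Itga11* had.

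The rows of the gene list held here name 36 of 122 integrin subunits, actin linkers, LIM proteins, adaptors and matrix ligands looked for, the 7 genes included. The copy of the list was shortened, genes without a row were not analysed here, and a list drawn for differences among these samples makes high counts likely. Of the other 29, 24 were called higher and 2 lower in V+S- cells when set against V-S- cells. Of all probes, 6.3% were called higher and 1.49% lower there. Against V-S+ cells 22 were called higher and 2 lower, where 5.73% of all probes were called higher and 1.28% lower. In V+S+ against V-S+ cells none was called with fraction alone. With clone as a block 18 were called higher and 2 lower, where 3.87% of all probes were called higher and 1.75% lower. Between V-S- and V-S+ cells none was called in either fit. In V+S- against V+S+ cells none was called with fraction alone. With clone as a block 9 of the 29 were called higher, where 1.75% of all probes were called higher. Among the 9 were *Col1a2* (1.46) and *Cav1* (1.24), the first of them above the 1.39 of *Itga11*. Counted in either direction, 33 of the 36 were called against V-S- cells and 31 against V-S+ cells. Leaving out 1 sample leaves a fraction 1 sample. The 33 calls were lost, as were those of all other probes, without V+S- cells of clone 16.1 or V-S- cells of either clone. The 31 were lost, with nearly all calls on the array, without V+S- cells of clone 16.1 or V-S+ cells of either clone. Part of the 33 was lost without V-S+ cells of either clone. Part of the 31 was lost without V-S- cells of either clone or V+S- cells of clone 5.1. Calls over all probes fell in these fits too.

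Of the 7 integrin subunits named, 6 rose in V+S- over V-S- cells and 1 fell. Beside *Itga11* and *Itga8*, these were *Itgb1* (1.01), the β chain both of them pair with, *Itgav* (0.96) of the vitronectin and fibronectin receptors, *Itga3* (0.85), a laminin receptor chain, and *Itgb4* (0.82), which forms the laminin receptor of hemidesmosomes. *Itgal*, the α chain of the leukocyte integrin LFA-1, was called lower (-0.68). Mean levels of *Itgb1* were -0.83 for V-S+ cells, -0.15 for V+S+ cells, -0.88 for V-S- cells and 0.12 for V+S- cells, so that it too was higher in both V+ fractions, while *Itga3* was at 1.25 in V+S+ and 1.24 in V+S- cells. *Itga3* missed the call against V-S+ cells (0.63, adjusted p = 0.100), and with clone as a block it was called (adjusted p = 0.00108).

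Among 10 actin linkers, 8 were called higher in V+S- cells than in V-S- cells. Of all probes, 6.3% were called higher and 1.49% lower in this comparison. The linkers were led by *Flnc* (1.61), which encodes the actin crosslinker filamin C, *Parva* (1.37) and *Tns4* (1.28), which encodes a tensin that lacks the actin-binding part. *Tns3*, another tensin, was called lower (-0.72), and *Tln2*, a talin, had a difference of -0.73 that was not called (adjusted p = 0.0513), and with clone as a block it was (adjusted p = 0.0034). Of 8 LIM proteins 7 were called higher, led by *Fhl2* (2.00), *Lpp* (1.70) and *Tgfb1i1* (1.65), which encodes the paxillin relative Hic-5, and *Pdlim3* (0.86) was not called (adjusted p = 0.0842), and with clone as a block it was (adjusted p = 0.00135). All 4 adaptors were called higher, with *Cav1* (2.20), the main protein of caveolae, *Capn2* (1.72), a calpain protease that cleaves adhesion proteins, and *Bcar3* (1.08), a binding partner of p130Cas, ahead of *Bcar1*. Of 7 ligands 6 were called higher, led by *Thbs1* (2.29) for thrombospondin-1, *Col1a2* (1.97) for a chain of type I collagen, which α11β1 binds, and *Cyr61* (1.33), a matricellular protein. *Spp1*, the RGD protein osteopontin, had a difference of -0.16 and was not called.

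**Figure D4:**
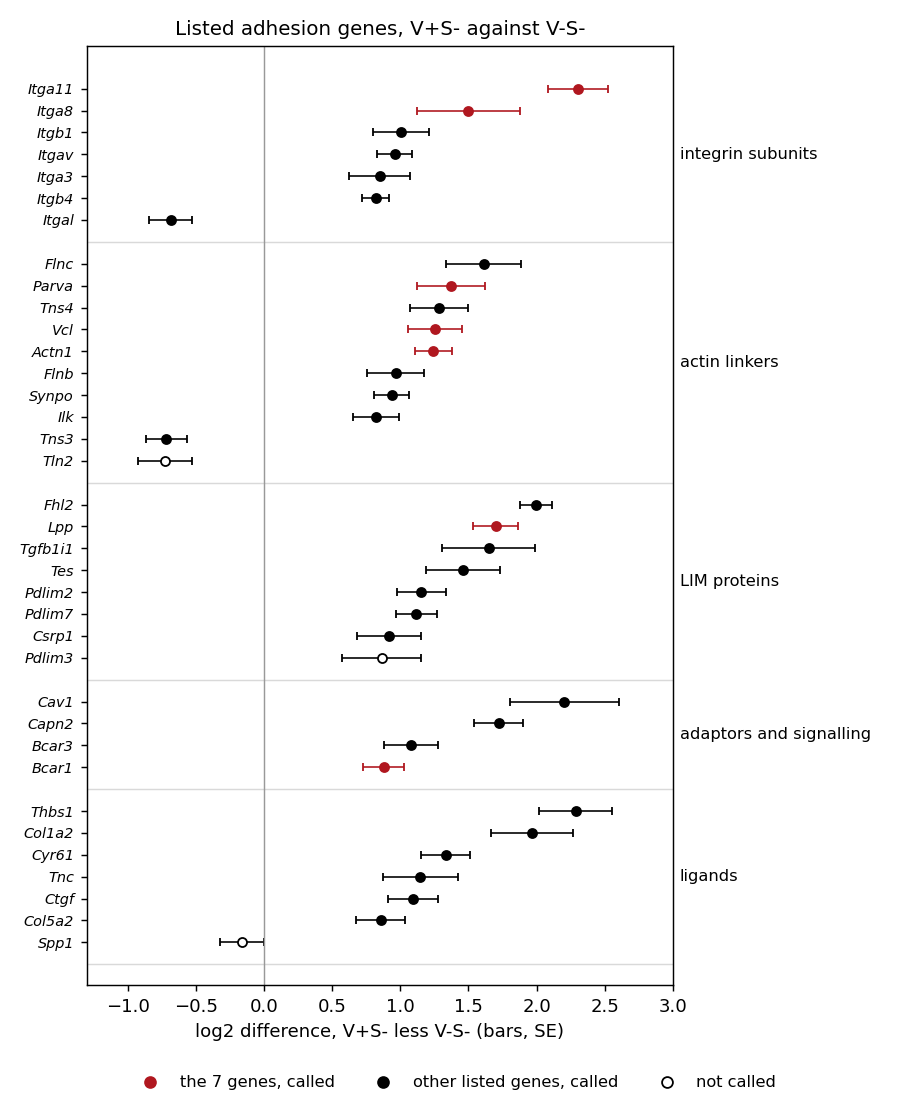
Log2 difference of V+S- over V-S- cells for the 36 named genes of adhesion, by group, with SE (2 samples a fraction). Red points are the 7 genes, black points the other genes, and open points were not called. In every group most genes lie above 0, and *Itgal*, *Tns3*, *Tln2* and *Spp1* lie below 0.

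In V+S- cells markers of several cell types moved with the 7 genes. Only markers named in the gene list were counted, and a list drawn for differences among these samples makes high counts likely. Of all probes, 6.3% were called higher and 1.49% lower against V-S- cells, and 5.73% higher against V-S+ cells. Of 16 primitive endoderm markers looked for, 8 are named in the gene list. Of these, 7 were called higher in V+S- cells than in V-S- cells, led by *Sox7* (1.76), while *Afp* (0.57) was under 1.5-fold. Of 12 fibroblast markers 4 are named, *Acta2*, *Col1a2*, *Postn* and *Tagln*, and all 4 were called higher, between 1.75 and 2.04; against V-S+ cells 2 of them were called, *Col1a2* and *Postn*, while *Acta2* had an adjusted p of 0.0679 and *Tagln* of 0.0562, and with clone as a block both were called (0.00112 and 0.000531). Of 14 ES cell markers 6 are named, and 4 were called lower, among them *Nanog*, *Dppa3* (-1.41) and *Spic* (-1.41); with clone as a block the other 2, *Pou5f1* (-0.74, adjusted p = 0.0119) and *Rex2* (-0.59, adjusted p = 0.0158), were called lower too. The trophoblast marker named, *Krt7*, was called higher against V-S- cells (1.33) and against V-S+ cells (0.73), but in clone 16.1 it was at 1.61 in V+S- and 1.62 in V+S+ cells, and none of 8 mesoderm markers is named. No probe at all, and so no marker, was called against V-S- cells without V+S- cells of clone 16.1 or V-S- cells of either clone. The median level of the 4 fibroblast markers was -3.06 to -2.37 in V- samples, -2.60 and -1.77 in V+S+ cells and -1.28 and -0.76 in V+S- cells of clones 5.1 and 16.1. The median of the 8 primitive endoderm markers was -1.60 to -1.34 in V- samples, -1.22 and -0.72 in V+S+ cells and -0.36 and -0.25 in V+S- cells. In both lists V+S- cells stood above the other samples, and clone 16.1 stood above clone 5.1 in each fraction, by less than the second decimal in V-S- cells for the primitive endoderm markers (-1.57 in both clones). In V+S+ against V-S+ cells no marker was called with fraction alone. With clone as a block *Tagln* (0.92) was called higher and *Dppa3* (-1.37), *Spic* (-1.36) and *Nanog* (-0.72) lower. Of all probes, 3.87% were called higher and 1.75% lower in that fit. No primitive endoderm marker was called there, though all 8 had a difference above 0. The part of either kind of cell in the levels of the 7 genes was not tested.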

How the data were processed

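RNA of sorted cells (Cy3) and a universal mouse reference (Cy5) were hybridised on two-colour arrays of 60-base probes. The authors deposited the spot intensity of 2 scans per array as written by Agilent Feature Extraction 9.5.1.1 (16 files), with flags for outliers and for signal above background, and log10 values of 25164 probes, which matched processed Cy3 over Cy5 ratios after centring. The file headers name another array design than the study's methods, and the dye orientation comes from the labels and methods. The general sample description repeats 1 fraction and omits V+S-, so fractions were taken from the sample titles.

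Intensities were background-corrected (normexp, offset 50), loess-normalized without control spots, and the scans averaged into 1 replicate with limma 3.58.1 in R 4.3.3. Probes had to be well above background in Cy3 in every file of a fraction (29495 of 42006), and the 29484 with no missing sample were tested. All 8 samples were fitted with fraction as the only term, and a call needed a Benjamini-Hochberg FDR of 0.05 and more than 1.5-fold. With 2 arrays per fraction, their number sets the limit of precision. Since a clone number marks a cell line, it pairs the samples. A clone's deviations from the mean of each fraction correlated across probes with r from 0.588 to 0.811 over pairs of fractions, and a fit with clone as a block was run beside the other.

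In a simulation of 29484 probes, V+S- against V-S+, the fit recovered 67% of 200 changes of 1 on the log2 scale with 1 false call. With the block it recovered 91% with 6 false calls. Only V+S- cells were changed, and each probe had the same clone difference in every fraction. In the data the clone difference spread more in V+S+ cells (SD 0.30) than in V-S+ cells (0.19), so these rates need not hold there. The genes followed, the lists and the tests were chosen with earlier results of these data known. Gene names came from a supplementary list of the study, of which a shortened copy with 1998 probes was used; its other rows were not analysed here. Named were all 7 genes, every integrin subunit in that list, and of each other group the 3 genes with the largest difference in V+S- against V-S- cells and each one lower there; *Pdlim3*, *Itga3* against V-S+ cells and the cell type markers quoted by value were named after their values were seen. Alternatives changed the background correction, normalization, filter, scans, source of values, block and moderation, or left out a sample.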

Additional observations from a re-analysis of the deposited data

Results flagged for a closer look

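The difference between V+ and V- cells, compared between the S- and S+ states, ran in opposite directions in the clones for *Itga8*: it was 0.45 larger in S- cells of clone 5.1 and 0.34 smaller in those of clone 16.1 (log2 difference of -0.34), so that clone 16.1 less clone 5.1 was -0.78. The levels behind it were 1.48 and 3.15 in the S- fractions of clone 5.1 and 2.30 and 3.63 in those of clone 16.1. *Bcar1* also had opposite signs in the clones in V-S- against V-S+ cells, -0.01 in clone 5.1 and 0.01 in clone 16.1, a distance of 0.016 that is under the SE of 0.15. With 1 sample per clone and fraction neither difference between clones was tested.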

How the results depend on the processing

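The calls rest on 2 samples per fraction. With clone as a block, the count of the 7 genes called went from 0 to 7 in V+S+ against V-S+, from 0 to 1 in V+S- against V+S+ and from 0 to 2 for the interaction, and that of the 36 listed adhesion genes from 0 to 27 in V+S+ against V-S+ and from 0 to 10 in V+S- against V+S+; it changed no other call of the 7 genes between 2 fractions, and by the F-test it called all 7. With the block, 1656 of 29484 probes were called in V+S+ against V-S+, 621 in V+S- against V+S+ and 280 for the interaction. Without moderation, 1 of the 7 was called in V+S- against V-S+, 3 in V+S- against V-S-, 0 by the F-test and 0 between the clones. Of the 36 listed genes, 3 and 6 were called in V+S- against V-S+ and V-S-. Over all probes, 337 and 358 were then called in these comparisons, against 2065 and 2298 with moderation. Between the clones it was 2 probes, against 631. By the F-test over fractions, 0 of the 7 were called with the scanner's processed signals and 3 with the authors' log10 values. Leaving out 1 sample at a time gave 0 to 7 of the 7 genes in V+S- against V-S+, 0 to 7 in V+S- against V-S-, 0 to 7 by the F-test and 0 to 1 between the clones, and 0 to 33 and 0 to 35 of the listed genes in V+S- against V-S+ and V-S-. The cause of these losses was not tested beyond the loss of a sample itself. No called difference of the 7 genes changed direction under any alternative run.

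*Itga8* had the highest adjusted p of the 7 genes in V+S- against V-S-, which was 0.0506 without the signal filter and 0.0612 with the authors' log10 values. Median centring left all 7 calls in both comparisons of V+S- with V- cells. For *Itga11* the difference of V+S- over V-S- was 2.59 with processed signals against 2.30, and for *Itga8* 1.45 against 1.498; the cause was not tested.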
